A study of Mus musculus with 4 samples.

Results

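The long RNAs described here are Malat1 and Neat1, which stay in the nucleus, and 7 RNAs that host small nucleolar RNAs (snoRNAs), namely Gas5, Snhg1, Snhg3, Snhg5, Snhg6, Snhg8 and Snhg12. They were chosen by gene symbol, and each symbol matched a single row, so that 9 of the 55401 genes in the count files were followed. RNA of B220+ B cells sorted from spleens of C57BL/6J mice was sequenced in 4 libraries, to ask how gene expression differs when B cells lack NSD1, an enzyme that methylates lysine 36 of histone H3. The 2 NSD1 B WT libraries came from Mb1-Cre+ NSD1+/+ mice and the 2 NSD1 B KO libraries from Mb1-Cre+ NSD1fl/fl mice. Both genotypes thus carry the Mb1-Cre transgene, which is driven by the Cd79a locus in the B lineage, and in the NSD1 B KO the Cre removes exons 6 to 8 of Nsd1. Controls were littermates, and the mice used in the experiments of the study were 7 to 9 weeks old and of both sexes. The labels do not say whether the replicates came from separate mice or from pools. Each p-value thus measures the spread between these libraries, which is partly shared over genes and may be technical.

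Malat1 is one of the most abundant nuclear RNAs of mammalian cells. It is made as a single long exon, gathers in nuclear speckles, where splicing factors are stored, and ends in a triple helix in place of a poly(A) tail. Neat1 is transcribed from the neighbouring gene and is the scaffold around which paraspeckles assemble. The host RNAs work differently. Their introns hold snoRNAs, which guide the methylation (box C/D) or pseudouridylation (box H/ACA) of ribosomal RNA, while the spliced host RNA is usually exported, engaged by ribosomes and removed by nonsense-mediated decay. Many host genes begin at a pyrimidine-rich start of the kind that ribosomal protein genes have, so that their transcription follows that of the translation machinery.

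In the NSD1 B KO, 6 of the 9 long RNAs were higher than in the NSD1 B WT, 1 was lower and 2 did not pass the threshold. The threshold asked for a fold change above 1.2 and for p under 0.05 in edgeR's quasi-likelihood test after Benjamini-Hochberg adjustment. The same threshold was passed by 78.2% of the 11657 genes tested, by 37.1% in the higher and by 41.1% in the lower direction. A share of 7 in 9 called was therefore near the background. Snhg5 stood 7.34-fold higher, Snhg8 2.07-fold, Snhg3 1.81-fold, Snhg1 1.73-fold, Snhg6 1.71-fold and Neat1 1.47-fold, while Snhg12 was 1.78-fold higher in the NSD1 B WT. The 2 most abundant RNAs, Malat1 and Gas5, differed by 1.15-fold and 1.19-fold. The median log2 fold change was 0.78 over the 9 RNAs, all of which were tested, and -0.10 over all tested genes.

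The genes lie on 5 chromosomes of the mouse genome (mm10). Malat1 (ENSMUSG00000092341.3, chr19:5795690-5802672, minus strand) and Neat1 (ENSMUSG00000092274.3, chr19:5824708-5845478, minus strand) are annotated as lincRNA genes and lie 22035 bp apart. Gas5 (ENSMUSG00000053332.13) spans chr1:161034422-161038539 on the plus strand and Snhg6 (ENSMUSG00000098234.7) chr1:9941959-9944118 on the minus strand. Snhg1 (ENSMUSG00000108414.1) spans chr19:8723475-8726443 on the plus strand, Snhg5 (ENSMUSG00000097195.10) chr9:88521050-88522929 on the minus strand and Snhg8 (ENSMUSG00000104960.1) chr3:123507552-123508404 on the minus strand. Snhg12 (ENSMUSG00000086290.9, chr4:132308623-132311024, plus strand) and Snhg3 (ENSMUSG00000085241.7, chr4:132348014-132353686, minus strand) are 36989 bp apart.

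The 7 host genes hold 29 annotated snoRNA genes, 10 in Gas5, 8 in Snhg1, 5 in Snhg12, 2 each in Snhg3 and Snhg5 and 1 each in Snhg6 and Snhg8. On the strand of the gene, TGATGA of box C was searched near the 5′ end and CTGA of box D near the 3′ end. Both were found in 17 of the 29, and ACA at 3 bases from the end, as in the H/ACA class, in 6. In Gm24453 of Snhg1, TGATGA began further in, and this gene was not counted among the 17. The sequences below are those of Snhg5, the host with the largest difference between genotypes, and of Snhg6, whose snoRNA was counted apart from its host. They are read 5′ to 3′ from GENCODE M21 transcripts, with box C and box D in capitals, at chr9:88521529-88521600, chr9:88521797-88521868 and chr1:9942463-9942549, all on the minus strand.
Snord50a (in Snhg5): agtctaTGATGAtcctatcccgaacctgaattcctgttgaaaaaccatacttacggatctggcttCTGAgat
Snord50b (in Snhg5): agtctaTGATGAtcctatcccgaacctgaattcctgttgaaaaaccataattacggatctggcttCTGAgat
Snord87 (in Snhg6): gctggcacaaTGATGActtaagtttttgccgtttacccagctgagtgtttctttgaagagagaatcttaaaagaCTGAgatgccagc

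Snord50a and Snord50b are 72 bases long and differ by 1 substitution, C50A, with Snord50a as the reference and positions counted from 1 at the 5′ end. A read inside either could therefore align to both.

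**Figure D1:**
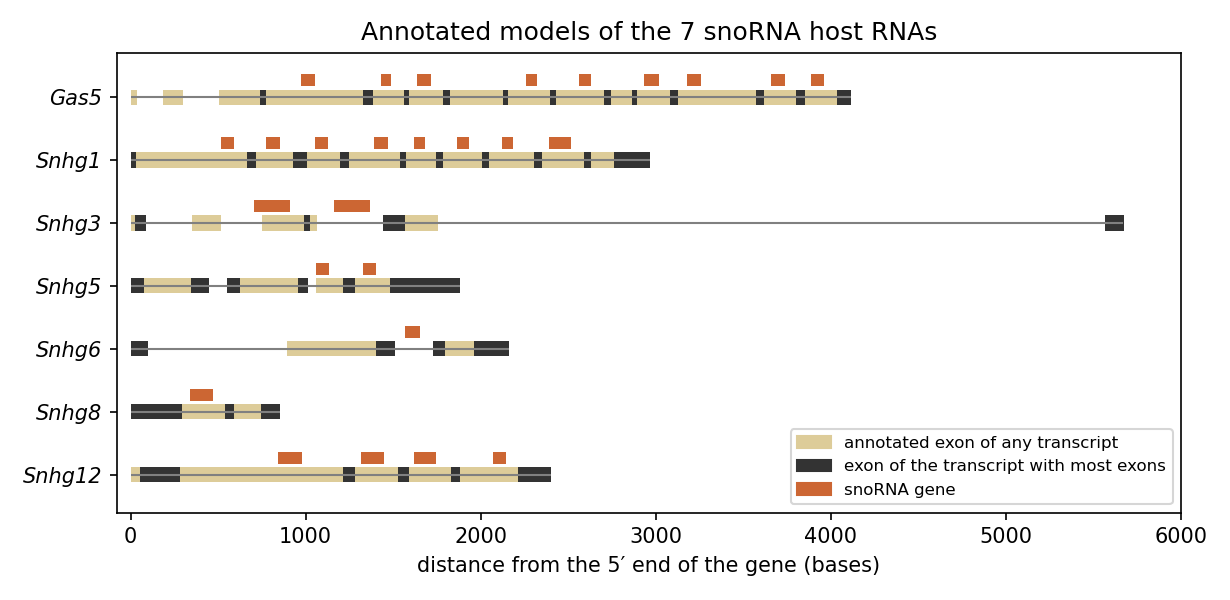
Annotated models of the 7 snoRNA host genes, drawn from the 5′ end of each gene, with distance in bases on the horizontal axis. Black blocks are exons of the transcript with most exons, pale blocks are exons of any other annotated transcript and orange blocks are the 29 snoRNA genes, 27 of which lie over a pale block.

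The counts do not report the snoRNAs themselves. Of the 29 snoRNA genes, 27 overlap an annotated exon of some transcript of their host, and all 27 had 0 counts in all 4 libraries, Snord50a and Snord50b among them. The other 2 were Snora73b in Snhg3, counted 7 and 9 times in the NSD1 B WT and 0 and 0 in the NSD1 B KO, and Snord87 in Snhg6, counted 4 and 3 times in the NSD1 B WT and 0 and 0 in the NSD1 B KO. How reads over both a snoRNA and a host exon were counted is not stated, and ambiguous reads made up 2.21% to 2.41% of the counted reads. The levels of the hosts below are therefore not levels of mature snoRNAs.

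RefSeq starts on GRCm38.p6 were found for 7 of the 9 genes. The windows below run from 45 bases before the annotated start to 25 bases from it. They are shown because pyrimidine-rich starts are what is known of this class of gene, and capitals mark what was searched. One pattern was a run of at least 5 bases of C or T on the strand of the gene that opens with C and begins within 15 bases of the start. The other was TATAAA on either strand, between 45 and 15 bases before the start. The stretches searched for the 2 patterns did not overlap.
Malat1 (chr19:5802648-5802717, minus strand): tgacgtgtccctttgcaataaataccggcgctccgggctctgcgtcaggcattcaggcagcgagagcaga
Gas5 (chr1:161035121-161035190, plus strand): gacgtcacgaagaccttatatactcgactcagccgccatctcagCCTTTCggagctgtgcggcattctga
Snhg1 (chr19:8723442-8723511, plus strand): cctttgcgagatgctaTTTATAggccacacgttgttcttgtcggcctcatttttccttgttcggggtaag
Snhg3 (chr4:132353662-132353731, minus strand): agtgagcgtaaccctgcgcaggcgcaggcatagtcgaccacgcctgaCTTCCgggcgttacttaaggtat
Snhg5 (chr9:88522873-88522942, minus strand): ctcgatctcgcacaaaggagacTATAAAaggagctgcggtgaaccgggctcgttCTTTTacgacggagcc
Snhg8 (chr3:123508312-123508381, minus strand): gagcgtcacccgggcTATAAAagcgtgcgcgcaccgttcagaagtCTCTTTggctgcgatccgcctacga
Snhg12 (chr4:132308633-132308702, plus strand): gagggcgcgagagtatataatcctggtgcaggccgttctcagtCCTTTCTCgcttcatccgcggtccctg

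The C/T run was found in Gas5, Snhg3, Snhg5, Snhg8 and Snhg12, 5 of the 7 genes, and in 40.9% of 32851 RefSeq promoters searched the same way. TATAAA was found in Snhg1, Snhg5 and Snhg8, 3 of the 7, and in 2.72% of the promoters. Snhg12, the member that was lower in the NSD1 B KO, held a run of 8 bases, and Snhg5, with the largest increase, a run of 5. A further RefSeq start of Gas5, upstream of the one shown, held neither pattern. These are matches of letters and not mapped start sites.

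The libraries held 6769118 to 7566834 counts on genes, and 12383 to 13084 genes were counted in each. Mitochondrial genes took 7.14% and 7.90% of the counts in the NSD1 B WT and 8.98% and 9.27% in the NSD1 B KO, higher in both NSD1 B KO libraries, and the part of this difference in the results below was not tested. Nsd1 was counted 497 and 480 times in the NSD1 B WT and 284 and 280 times in the NSD1 B KO (67.5 ± 2.75 against 40.5 ± 1.52 CPM, read counts scaled to the size of the library; SD, n = 2 each), lower in both libraries of the NSD1 B KO. Its count covers the whole gene and not the deleted exons alone. Genes at 0 in 1 genotype despite 50 or more counts in the other were common, with 1016 at 0 in the NSD1 B KO and 681 at 0 in the NSD1 B WT. Nothing used here states that the files of both genotypes were counted and filtered alike, and this was not tested, so a bound on the fold change of a gene at 0 compares these files and may not be a difference between the cells. Markers of B cells were present in every library. Their summed level was 12800 and 12600 CPM in the NSD1 B WT and 12100 and 11100 CPM in the NSD1 B KO, with 5 of 7 lower and 0 higher. Most of the sum was Cd79b, with means of 6817 CPM in the NSD1 B WT and 8149 CPM in the NSD1 B KO, which was not called. The mean of Cd79a went from 1986 to 788 CPM and that of Pax5 from 42.9 to 4.38 CPM. Summed markers of erythroid cells rose from 39.6 and 35.5 CPM to 1940 and 1690 CPM, with 5 of 5 higher and Alas2 at 0 in the NSD1 B WT. Those of macrophages and monocytes were 4780 and 4870 CPM against 6240 and 5880 CPM, most of it Lyz2, with 3 of 6 higher and 2 lower. T cell markers summed to 52.4 and 53.2 CPM against 64.7 and 59.2 CPM, with 2 higher, Trac lower and Cd4 and Cd8a at 0 in every library. NK cell markers summed to 55.8 and 59.6 CPM against 79.8 and 79.6 CPM with Ncr1 at 0. Of these, Nkg7 was higher and Klrb1c was lower, at 0 in the NSD1 B KO. Neutrophil markers were at most 5.45 CPM, with Ngp, Camp and Ltf at 0. Plasma cell markers summed to 231 and 216 CPM against 169 and 174 CPM with Sdc1 at 0. Of these, 2 were lower, while Prdm1 was higher, with means of 2.62 and 7.96 CPM. Markers of plasmacytoid dendritic cells summed to 67.8 and 62.3 CPM against 106 and 106 CPM with Siglech at 0. The part of other cell types in the results below was not tested, and in bulk RNA fewer cells of a type and less RNA per cell cannot be told apart.

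Malat1 was counted 37696 and 40311 times in the NSD1 B WT and 45481 and 40928 times in the NSD1 B KO. Scaled between libraries by the TMM method, its levels were 5269 and 5508 CPM in the NSD1 B WT and 6313 and 6077 CPM in the NSD1 B KO. Both NSD1 B KO libraries were above both NSD1 B WT libraries. The means were 5389 ± 169 and 6195 ± 167 CPM (SD, n = 2 each), and the log2 fold change was 0.20 (SE 0.075, 95% interval 0.05 to 0.35, adjusted p = 0.0137 by edgeR's quasi-likelihood test). The fold change of 1.15 is below the limit of 1.2, so Malat1 was not called. With a trend on gene length and GC content removed, its log2 fold change was -0.01 (adjusted p = 0.923, edgeR).

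Malat1 held 0.542% and 0.565% of all gene counts in the NSD1 B WT and 0.601% and 0.605% in the NSD1 B KO. The exact 95% binomial intervals were 0.537% to 0.548%, 0.560% to 0.571%, 0.596% to 0.607% and 0.599% to 0.610%, and cover counting error only. It ranked between 18 and 21 among all genes of a library. Of the counts on the 9 RNAs, Malat1 took 88.1% and 88.3% in the NSD1 B WT and 86.5% and 86.2% in the NSD1 B KO, so that a sum over the RNAs is mostly Malat1. A gene of provisional type (TEC), Gm37376, is annotated on the opposite strand and lies wholly within Malat1, sharing 453 bp of its exon. It was counted 23961 and 24568 times in the NSD1 B WT and 30759 and 25231 times in the NSD1 B KO, a log2 fold change of 0.26 (SE 0.077, adjusted p = 0.00231, edgeR), which did not pass the fold limit. Gm37376 thus held counts of its own although all of its bases lie in the Malat1 exon. Whether the counting used strand is not given in the sources used here. From which RNA the reads counted on Gm37376 came was not tested.

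Neat1 had far fewer counts than its neighbour, 325 and 328 in the NSD1 B WT and 526 and 399 in the NSD1 B KO. The levels were 45.4 and 44.8 CPM against 73.0 and 59.2 CPM. The NSD1 B WT libraries lay close together, the NSD1 B KO libraries were both higher and stood further apart. Neat1 rose, with a log2 fold change of 0.55 (SE 0.11, 95% interval 0.32 to 0.78, adjusted p = 2.6e-05 by edgeR's quasi-likelihood test). Within a library, the log2 ratio of Neat1 to Malat1 counts was -6.86 and -6.94 in the NSD1 B WT and -6.43 and -6.68 in the NSD1 B KO, a ratio free of scaling between libraries. The genotypes did not overlap in this ratio, and its mean was 0.34 higher in the NSD1 B KO. Of the tested genes taken singly, 88.1% did not overlap either. The annotated exons of Neat1 cover 20771 bases, and the counts do not separate its short and long transcripts.

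**Figure D2:**
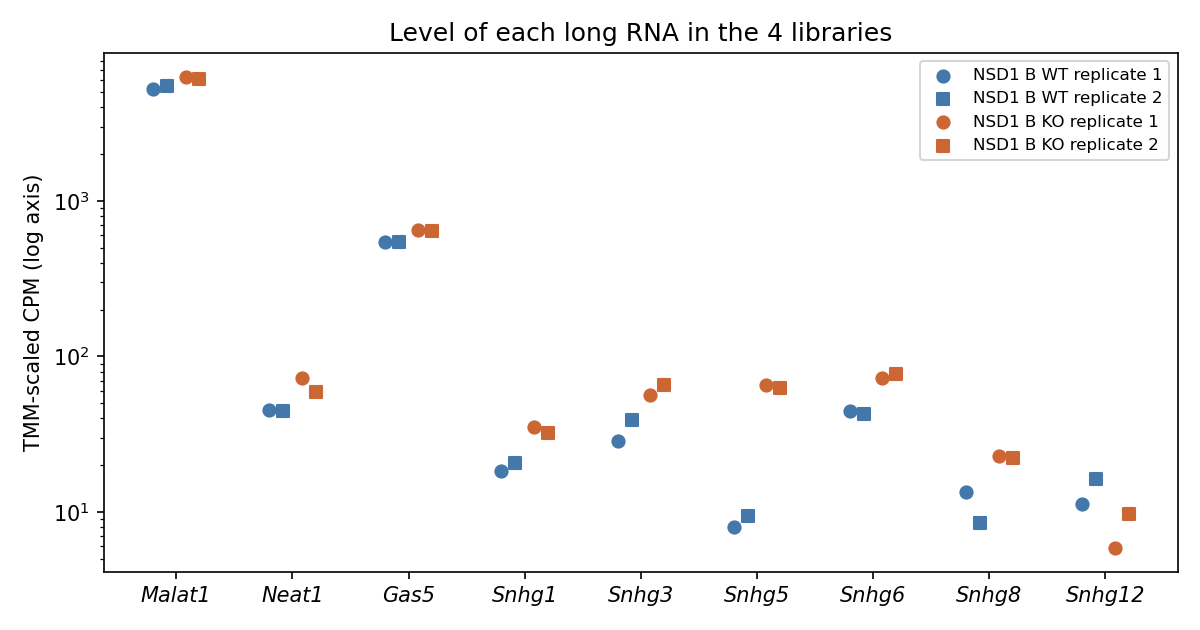
TMM-scaled CPM of each long RNA in the 4 libraries, on a log axis, with NSD1 B WT in blue and NSD1 B KO in orange (circles replicate 1, squares replicate 2). The NSD1 B KO points lie above the NSD1 B WT points for 8 RNAs and below them for Snhg12, and the gap is widest for Snhg5.

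Gas5, which carries 10 annotated snoRNA genes and accumulates in cells that stop growing, was the most abundant host. It was counted 3878 and 4006 times in the NSD1 B WT and 4712 and 4338 times in the NSD1 B KO, or 542 and 547 CPM against 654 and 644 CPM. The replicates of each genotype lay close together and the NSD1 B KO libraries were above the NSD1 B WT libraries. The log2 fold change was 0.25 (SE 0.076, 95% interval 0.10 to 0.41, adjusted p = 0.0024, edgeR's quasi-likelihood test), a fold change of 1.19 just below the limit of 1.2. Gas5 passed the limit with a log2 fold change of 0.27 by DESeq2, and of 0.28 without either NSD1 B WT library in turn. It fell to 0.02 with the trend on length and GC content removed. Zbtb37, a zinc finger gene on the opposite strand whose start lies 427 bp from that of Gas5, was counted 59 and 82 times in the NSD1 B WT and 57 and 66 times in the NSD1 B KO (log2 fold change -0.14, SE 0.26, adjusted p = 0.625, edgeR), and its genotypes overlapped.

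Snhg5 showed the largest difference of the 9 RNAs. It was counted 57 and 69 times in the NSD1 B WT and 470 and 423 times in the NSD1 B KO, or 7.97 and 9.43 CPM against 65.2 and 62.8 CPM. The replicates lay close together and the genotypes were far apart. The log2 fold change was 2.88 (SE 0.16, 95% interval 2.56 to 3.19, adjusted p = 1.0e-21 by edgeR's quasi-likelihood test). A change at least as large in either direction was seen in 3388 of the tested genes, or 29.1%. Among the hosts it moved from the lowest level per length in the NSD1 B WT to the fourth of the 7 in the NSD1 B KO.

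Snhg8, with a single H/ACA snoRNA gene, Snora24, was counted 96 and 62 times in the NSD1 B WT and 166 and 149 times in the NSD1 B KO. Its levels were 13.4 and 8.47 CPM against 23.0 and 22.1 CPM, so that the NSD1 B WT libraries spread more than the NSD1 B KO libraries but stayed below them. The log2 fold change was 1.05 (SE 0.20, adjusted p = 8.9e-06, edgeR's quasi-likelihood test). Snhg6, the host of Snord87, was more even. It was counted 318 and 313 times in the NSD1 B WT and 522 and 518 times in the NSD1 B KO, or 44.5 and 42.8 CPM against 72.5 and 76.9 CPM, and its log2 fold change was 0.78 (SE 0.11, adjusted p = 1.3e-08, edgeR). Mcmdc2, a meiotic gene of the MCM family, lies on the opposite strand and shares 127 bp of exon with Snhg6. It was counted 59 and 94 times in the NSD1 B WT and 167 and 167 times in the NSD1 B KO (log2 fold change 1.18, SE 0.20, adjusted p = 7.8e-07, edgeR).

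Snhg1, the host of 8 snoRNA genes, was counted 131 and 152 times in the NSD1 B WT and 255 and 216 times in the NSD1 B KO. The levels were 18.3 and 20.8 CPM against 35.4 and 32.1 CPM, higher in both NSD1 B KO libraries. Its log2 fold change was 0.79 (SE 0.16, adjusted p = 1.2e-05, edgeR's quasi-likelihood test). Slc3a2, which encodes the heavy chain of amino acid transporters (CD98), starts 106 bp away on the opposite strand. It was counted 225 and 230 times in the NSD1 B WT and 392 and 297 times in the NSD1 B KO, and it rose too (log2 fold change 0.65, SE 0.13, adjusted p = 1.6e-05, edgeR).

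Snhg3 hosts Snora73a and Snora73b, the H/ACA RNAs also known as U17. It was counted 205 and 284 times in the NSD1 B WT and 408 and 444 times in the NSD1 B KO, or 28.7 and 38.8 CPM against 56.6 and 65.9 CPM. The replicates were spread in each genotype, and the genotypes did not overlap. The log2 fold change was 0.86 (SE 0.13, adjusted p = 4.8e-08, edgeR's quasi-likelihood test). Rcc1, which encodes the nucleotide exchange factor of Ran, starts 81 bp from Snhg3 on the same strand and shares 135 bp of exon with it. Rcc1 was counted 154 and 174 times in the NSD1 B WT and was at 0 in both NSD1 B KO libraries, at least 105-fold lower against a limit of 3 counts over the group. Gm17300, on the opposite strand with 705 bp of shared exon, was counted 363 and 423 times in the NSD1 B WT and 692 and 655 times in the NSD1 B KO (log2 fold change 0.83, SE 0.10, adjusted p = 4.8e-10, edgeR). Reads of Snhg3, Rcc1 and Gm17300 in the shared exons cannot be told apart.

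Snhg12, with 5 annotated snoRNA genes, was the one host that fell. It was counted 80 and 119 times in the NSD1 B WT and 42 and 65 times in the NSD1 B KO, or 11.2 and 16.3 CPM against 5.83 and 9.65 CPM. The higher NSD1 B KO library lay only a little below the lower NSD1 B WT library. The log2 fold change was -0.83 (SE 0.25, 95% interval -1.35 to -0.32, adjusted p = 0.0029, edgeR's quasi-likelihood test). The call rested on single libraries and on the tool. Without NSD1 B WT replicate 2 the log2 fold change was -0.51 (adjusted p = 0.168, edgeR), and without NSD1 B KO replicate 1 it was -0.51 (adjusted p = 0.069, edgeR). By DESeq2 the adjusted p was 0.051 and by limma-voom 0.071.

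**Figure D3:**
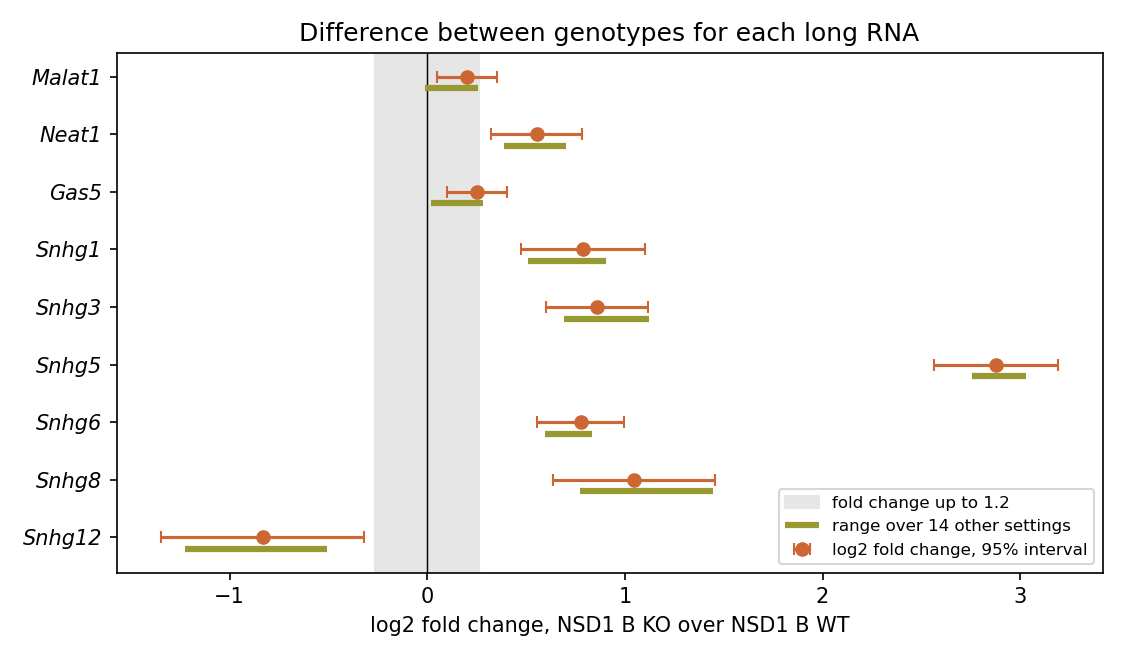
Log2 fold change between the NSD1 B KO and the NSD1 B WT for each long RNA (points) with the 95% interval of edgeR's quasi-likelihood fit (bars), the range over 14 other settings (lines below the points) and the zone of fold changes up to 1.2 (grey). Neat1, Snhg1, Snhg3, Snhg5, Snhg6 and Snhg8 lie right of the grey zone, Malat1 and Gas5 inside it, and the range of Snhg12 reaches from -1.23 to -0.51.

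The libraries of the NSD1 B WT and the NSD1 B KO did not overlap for any of the 9 RNAs, as was the case for 88.1% of all tested genes. With 2 libraries in each group, an exact permutation test on 1 gene cannot go below p = 0.333. Under stricter limits, an adjusted p under 1e-05 with more than 0.5 of change on the log2 scale, which 57.2% of the tested genes passed, Snhg3, Snhg5, Snhg6 and Snhg8 were called. Over the 7 hosts, 5 rose, 1 fell and 1 was not called, and the median log2 fold change was 0.79. Of the 952 other long non-coding genes tested, 374 rose and 411 fell, and the median log2 fold change was -0.12.

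Ratios to Gas5 within each library set the other hosts on a scale that does not depend on the factors between libraries. The log2 ratio of Snhg5 to Gas5 was -6.09 and -5.86 in the NSD1 B WT and -3.33 and -3.36 in the NSD1 B KO, a mean difference of 2.63. That of Snhg12 was -5.60 and -5.07 against -6.81 and -6.06, a difference of -1.10. Snhg12 thus moved opposite to the rest. The ratios of Snhg1, Snhg3, Snhg6 and Snhg8 were 0.52 to 0.83 higher in the NSD1 B KO. In none of these ratios did the genotypes overlap, but 88.1% of the tested genes taken singly did not overlap either. The ratio of Gas5 to Malat1, which was not planned, did not overlap at a mean difference of only 0.05. How often ratios of other genes overlap was not computed.

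**Figure D4:**
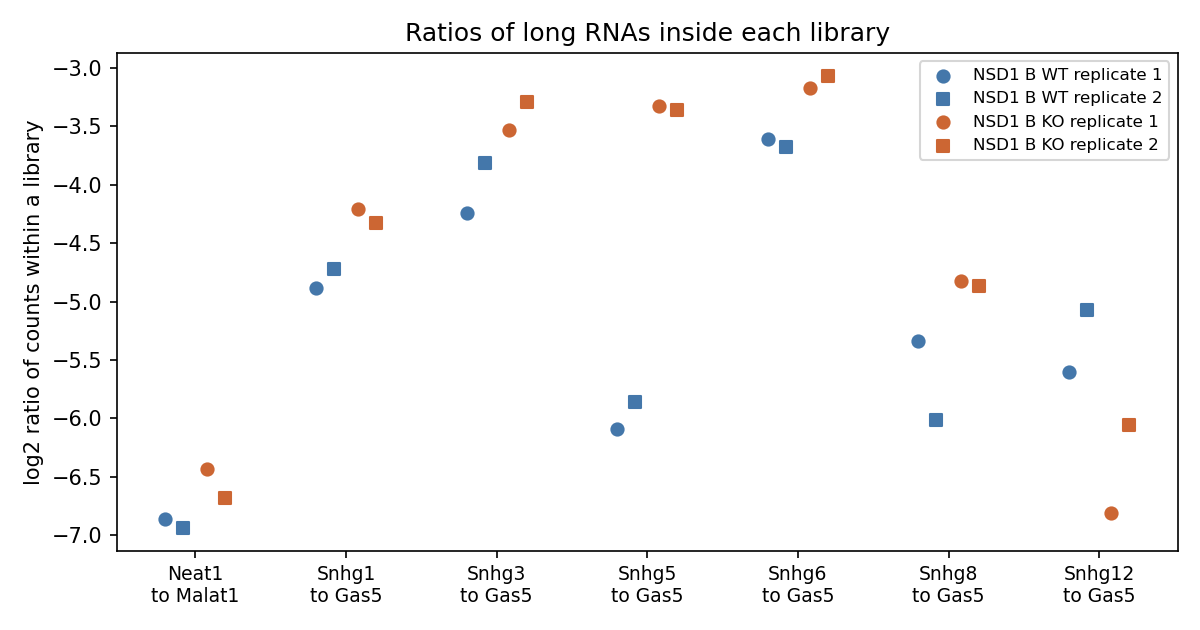
Log2 ratio of counts within each library, of Neat1 to Malat1 and of each host to Gas5, with NSD1 B WT in blue and NSD1 B KO in orange (circles replicate 1, squares replicate 2). The NSD1 B KO is higher in every ratio shown but that of Snhg12, and the difference of 2.63 for Snhg5 is the widest.

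Set per kilobase of annotated exon, Malat1 led in both genotypes, with a mean of 772 CPM per kb in the NSD1 B WT and 887 CPM per kb in the NSD1 B KO. Gas5 followed at 145 and 173 CPM per kb. In the NSD1 B WT the order went on with Snhg6 (38.1 CPM per kb), Snhg3 (34.2), Snhg8 (12.8), Snhg1 (6.58), Snhg12 (5.71), Snhg5 (5.03) and Neat1 (2.17). The ranges of Snhg6 and Snhg3, of Snhg1 and Snhg12 and of Snhg12 and Snhg5 overlapped, so these neighbours did not differ beyond their spread. In the NSD1 B KO, Snhg6 (65.2 CPM per kb) and Snhg3 (62.1) again overlapped, Snhg5 was next at 37.0, followed by Snhg8 (26.5) and Snhg1 (11.4), and Snhg12 (3.22) and Neat1 (3.18) overlapped at the bottom. The exonic length counts every base in any annotated transcript, which was the whole span of Malat1, Neat1, Snhg1, Snhg8 and Snhg12 but 17.4% of the span of Snhg3, so levels per length depend on the annotation.

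Many genes shared the small changes of Malat1 and Gas5. Over centred log2 CPM in the 4 libraries, among the 3571 genes that averaged 5 or more on the log2 CPM scale, the genes nearest to Malat1 were Cybb, a subunit of the phagocyte oxidase (distance 0.0064), and Snx3 (0.023). Those nearest to Gas5 were Ndufab1 (0.018) and Mplkip (0.030). Within a distance of 0.1 there were 125 genes for Malat1, 125 for Gas5 and 22 for Neat1, whose nearest genes were Mad2l1bp (0.037) and Arl8b (0.041). The points are 4 libraries in 2 genotypes, so likeness is mostly a like difference between genotypes.

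Other snoRNA host RNAs went both ways. Of 11 tested, 3 rose, 6 fell and 2 were not called, and the median log2 fold change was -0.33. The 3 that rose came down to 1 by DESeq2 and to 1 by limma-voom. Snhg15 rose, counted 362 and 374 times in the NSD1 B WT and 678 and 570 in the NSD1 B KO (log2 fold change 0.81, SE 0.10, adjusted p = 1.3e-09, edgeR). Zfas1, which hosts C/D snoRNAs, fell (log2 fold change -0.33, SE 0.14, adjusted p = 0.029, edgeR), and Dancr rose (0.40, SE 0.16, adjusted p = 0.025, edgeR). Snhg18 was counted 55 and 42 times in the NSD1 B WT and was at 0 in both NSD1 B KO libraries, at least 31.2-fold lower. Snhg20, the most abundant of the list, had a log2 fold change of 0.02 (SE 0.084, adjusted p = 0.808, edgeR) and was not called. Of 23 protein-coding hosts, 10 rose, 6 fell and 7 were not called, with a median of 0.19. Tpt1, the translationally controlled tumour protein, rose by 0.73 on the log2 scale and Rps3, a protein of the small ribosomal subunit, fell by 0.29. Rack1, a scaffold protein of the ribosome, was at 0.00 and not called.

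Of 16 proteins that bind snoRNAs or assemble their particles, 8 rose, 5 fell and 3 were not called, and the median log2 fold change was 0.25. Dkc1, the pseudouridine synthase of H/ACA particles and itself a snoRNA host, was counted 257 and 301 times in the NSD1 B WT and 1103 and 1013 times in the NSD1 B KO, and its log2 fold change was 1.98 (SE 0.10, adjusted p = 1.5e-22, edgeR). Naf1, an H/ACA assembly factor, was at 0 in both NSD1 B WT libraries and was counted 153 and 122 times in the NSD1 B KO, at least 94.9-fold higher. Of the other H/ACA core proteins, Nop10 rose by 0.35 and Nhp2 fell by 0.42 on the log2 scale, and Gar1, chosen after its values were seen, was at 0.14 on 10 to 21 counts and not called. Snu13 of C/D particles was at -0.02 and not called. The other C/D core proteins, Nop56, Fbl and Nop58, were chosen after their values were seen. Nop56 rose, from 45.7 and 41.7 CPM in the NSD1 B WT to 123 and 123 CPM in the NSD1 B KO. Fbl rose by 0.61 on the log2 scale, and Nop58 was at -0.06 and not called.

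Of 16 nonsense-mediated decay factors, which remove many spliced host RNAs, 6 rose, 8 fell and 2 were not called, and the median log2 fold change was -0.21. Smg6, the endonuclease of the pathway, was counted 167 and 135 times in the NSD1 B WT and was at 0 in both NSD1 B KO libraries, at least 97.1-fold lower. Smg8, a partner of the kinase Smg1, was at 0 in both NSD1 B WT libraries and was counted 248 and 196 times in the NSD1 B KO, at least 153-fold higher. Smg1 itself was at -0.03 and not called. Among the core proteins of the exon junction complex, Eif4a3 fell by 0.35 and Rbm8a fell by 0.59 on the log2 scale, while Magoh rose by 0.85. Casc3 and Magohb were chosen after their values were seen. Casc3 fell, from 28.9 and 27.1 CPM to 13.3 and 11.0 CPM, and Magohb was at -0.06 and not called. Upf1, the helicase of the pathway, was chosen after its values were seen. It had 6.43 and 4.78 CPM in the NSD1 B WT and 0.278 and 0 CPM in the NSD1 B KO.

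Of 17 paraspeckle proteins, 8 rose, 8 fell and 1 was not called, and the median log2 fold change was 0.02. Nono, which binds Neat1 in the core of the paraspeckle, was at 159 and 151 CPM in the NSD1 B WT and 63.3 and 54.3 CPM in the NSD1 B KO, and fell by 1.39 on the log2 scale (SE 0.097, adjusted p = 8.8e-18, edgeR). Its partners Sfpq and Pspc1 were chosen after their values were seen. Sfpq rose by 0.74, and Pspc1 went from 51.0 and 58.2 CPM to 3.75 and 3.12 CPM, with a log2 fold change of -3.98. Tardbp fell by 0.30 and Hnrnpk fell by 0.37, while Hnrnph1 rose by 0.44. Rbm12 was at 0 in both NSD1 B WT libraries and was counted 136 and 151 times in the NSD1 B KO, at least 99.6-fold higher.

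Of 16 proteins of nuclear speckles or bound to Malat1, 6 rose, 4 fell and 6 were not called, and the median log2 fold change was 0.12. The splicing factors Srsf3 and Srsf7 rose by 0.61 and 0.73 and Hnrnpc rose by 0.36, while Son, a scaffold of the speckle, was at -0.13 and not called. The 4 lower came down to 2 without NSD1 B WT replicate 2 and went up to 6 without NSD1 B KO replicate 1. Of 12 factors that target RNA to the nuclear exosome or mature 3′ ends, 8 rose, 2 fell and 2 were not called, with a median of 0.41. Mtrex, the helicase of the exosome, rose by 0.35, Zcchc7 by 0.51 and Exosc3 by 0.39, and Rbm7 was at 0.06 and not called. Parn, which trims the 3′ ends of H/ACA RNAs, was counted 93 and 132 times in the NSD1 B WT and was at 0 in both NSD1 B KO libraries, at least 72.1-fold lower. The 8 higher came down to 4 by DESeq2, to 4 with the trend on length and GC content removed and to 5 without NSD1 B KO replicate 1.

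Of 11 other named long non-coding RNAs tested, 4 rose and 7 fell, and the median log2 fold change was -0.47. Oip5os1 rose by 0.47 and Dleu2 by 0.62, while Pvt1 fell by 0.64 and Ftx fell by 0.30 on the log2 scale. Mir155hg, the precursor of miR-155, was counted 95 and 81 times in the NSD1 B WT and was at 0 in both NSD1 B KO libraries, at least 56.6-fold lower. Lncpint, a p53-responsive RNA, had 29 and 34 counts against 0 and 0, at least 20.2-fold lower. None of the 9 RNAs followed here was at 0 in any library.

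**Figure D5:**
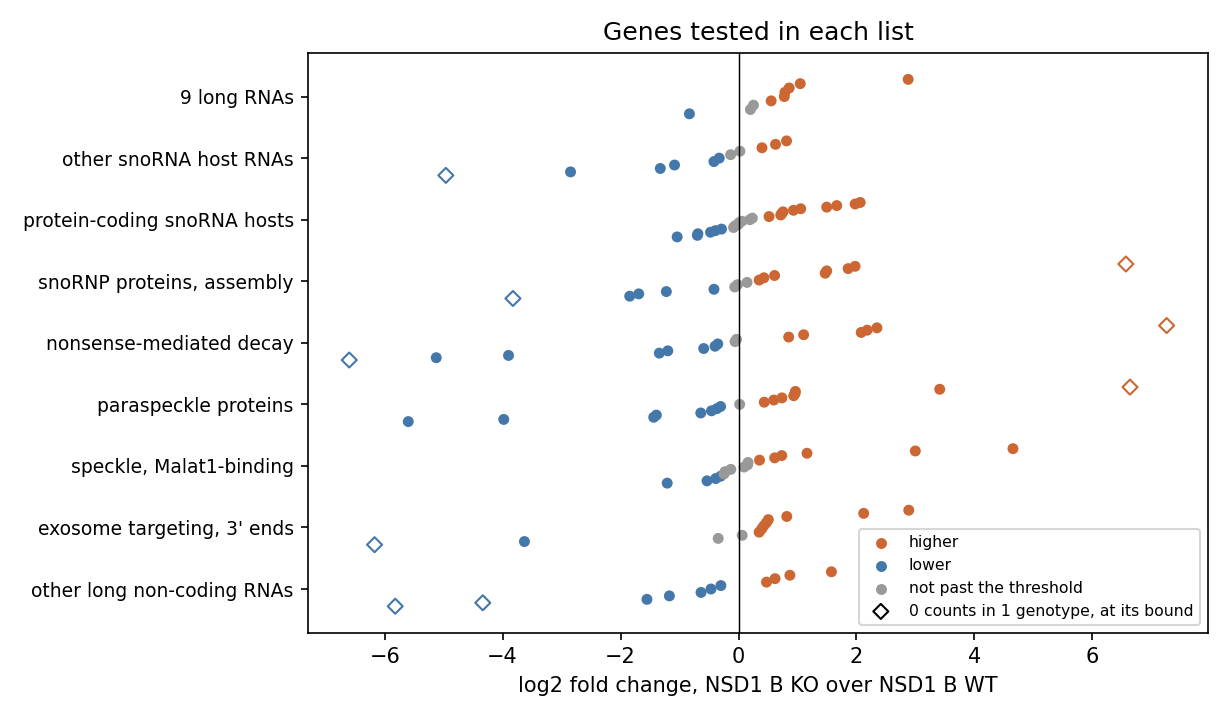
Log2 fold change between the NSD1 B KO and the NSD1 B WT for every tested gene of each list, with genes past the threshold in orange (higher) or blue (lower), others in grey, and genes at 0 throughout a genotype as open diamonds at their bound. The 9 long RNAs have a median of 0.78, and points lie on both sides of 0 in every list.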

How the data were processed

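RNA-seq counts of B220+ splenic B cells were taken as deposited for 4 libraries, 2 NSD1 B WT and 2 NSD1 B KO, grouped by their labels. Each deposited value is a whole-number count of reads on a gene, made by the authors and not normalized. The submitters' processing notes name Bowtie2, Cufflinks and mm10, while nothing used here states the counting program, its strand setting or the annotation release. Rows that name no gene (no feature, ambiguous, not unique) held 58.0% to 60.0% of the counted reads and were left out. Of 55401 identifiers, 55141 (99.5%) matched GENCODE M21, 54349 of them with the same version, and Snhg5 was matched without its version.

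Counts were scaled by TMM and tested with edgeR 4.0.16 (R 4.3.3; filterByExpr, minimum count 10, minimum total 15; quasi-likelihood F test, genotype alone), with p adjusted by Benjamini-Hochberg over 11657 genes. Calls needed a fold change above 1.2 and an adjusted p under 0.05. The biological coefficient of variation was 0.073. The prior degrees of freedom were 44.8 with 2 libraries per genotype, so edgeR drew the spread of each gene mostly from all genes together. Figures were drawn with matplotlib 3.10.9. DESeq2 1.42.0 and limma-voom (limma 3.58.1) were alternatives, with other scaling factors, filters and thresholds, a replicate block, a loess trend on length and GC content (span 0.5), and each library left out in turn. The edgeR test, tested on simulated data, called 92% of 200 genes given a log2 difference of 1 (11277 genes tested), and DESeq2 called 74.5% (11657 genes). A gene at 0 in both libraries of a genotype was set at 3 counts over the group (0.207 CPM in NSD1 B WT, 0.215 CPM in NSD1 B KO). Replicates were distinct libraries (mean chi-square per gene 2.92 and 3.78).

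Named in each list were genes at 0 throughout a genotype with 50 or more counts in the other, then the 4 with the highest mean CPM. One gene that this rule names is not reported here. Neighbours were genes that overlap a member or protein-coding genes that start near one. The members and lists were chosen with earlier results of these data known. Snhg7 of the list of other hosts was not matched by symbol.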

Additional observations from a re-analysis of the deposited data

How the results depend on the processing

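Neat1, Snhg1, Snhg3, Snhg5, Snhg6 and Snhg8 kept their direction and their side of the threshold under 14 alternative settings of scaling, filter, tool, block, trend and library. Under the stricter limits 4 of these 6 were called, and with no fold limit 8 members were higher, Malat1 and Gas5 among them. With no fold limit, 80% of all tested genes were called in either direction. Malat1, called in none of the 14 settings, was at -0.011 with the trend on length and GC content removed and at -0.010 with that trend and a replicate block, where the median of all tested genes moved from -0.10 to 0.01 and that of the 9 RNAs from 0.78 to 0.53 and, with the block, 0.52. Gas5 passed the fold limit at 0.26 with genes of at least 1 count tested and at 0.27 by DESeq2, and ranged from 0.24 to 0.28 with 1 library left out. Snhg12 was at -0.81 by DESeq2 and -0.85 by limma-voom, past the threshold in neither, and from -1.23 to -0.51 with 1 library left out. No member was then called lower, so that the count of 1 became 0 by DESeq2, by limma-voom and under the stricter limits, and ranged from 0 to 1 with 1 library left out. At an unadjusted p under 0.05 the count was 1 by DESeq2, 0 by limma-voom and 0 to 1 with 1 library left out. With at least 1 CPM required in all 4 libraries, 2855 genes were higher and 2991 lower, against 4323 and 4795, as fewer genes were tested. Of 224 counts over the fixed lists, 214 were within 1.5 times the count reported. The cause of the other changes was not tested. A replicate block changed no call among the 9 RNAs (Malat1 0.20, Snhg12 -0.84) and called 8960 genes against 9118. The replicate numbers were not taken to pair the libraries, since the correlation of replicate differences between genotypes was 0.165 over 3572 genes with only 2 pairs. With 1 library left out, the lone library is assumed to vary as the other genotype does. Snhg5, Snhg8 and Snhg12 rest on fewer than 100 counts in some libraries, which limits their precision.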
